A study of Zea mays with 11 samples.

Results

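Native RNA immunoprecipitation (RIP) with an antibody to PAM1 gave 711 regions of enriched RNA over IgG in anthers of the maize inbred line A344, and all 711 are described here, as listed in the authors' single deposited peak list. The antibody was used on 3 samples and IgG, which recognises no particular maize protein, on 2. All 5 samples were wild-type A344 anthers at prophase I of meiosis, and no *pam1* mutant sample was among them. The authors combined the samples before they made the list, so it holds no value per sample, no spread between replicates can be given, and no test between antibody and IgG was possible beyond the authors' own values. Levels of RNA in A344 anthers came from 3 wild-type RNA-seq libraries of the same stage, with 1918457 to 2420973 counts each. Anthers hold meiocytes together with several layers of somatic cells, and the labels give whole anthers, so fewer cells of a type and less RNA per cell cannot be told apart. Apart from its microRNA rows, the count table gives gene identifiers that were not paired with names here, so anther and meiocyte marker genes were not checked.

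PAM1 (plural abnormalities of meiosis) belongs to the proteins with an RNA recognition motif, a small fold that binds single-stranded RNA through its surface. The study places it with the meiotic chromosome axis, the protein core along which homologous chromosomes are aligned, and with CCR4-NOT, the main complex that shortens the poly(A) tails of mRNAs. In a native RIP the complexes are not cross-linked, and RNA is recovered with whatever proteins stay attached during the washes. The IgG samples measure the RNA that is carried along without the antibody's target. The RIP experiment was made to find RNAs bound by PAM1.

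Most peaks rested on very few fragments. For each peak the authors' list gives a fold enrichment and a −log10 p at the summit, the position with the strongest signal. Fold enrichment was taken as fragments plus 1 over background plus 1, and p as a Poisson tail over that background. That tail is the chance of more fragments than the number over the summit, not of at least as many. For 711 of 711 peaks, exactly 1 whole number of anti-PAM1 fragments then gave both values within the 6 digits of the list. By this reading 58 peaks had 2 fragments over the summit, 350 had 3, 115 had 4 and 78 had 5. Peaks with 2 or 3 fragments thus made up 57.4% of the list, and those with 5 or fewer 84.5%. At the other end, 46 peaks had 10 or more, and 6 had more than 80. These are fragments of the 3 antibody samples together. How they were divided among the samples is not given. Copies of 1 molecule cannot be told from separate molecules here. Of the 58 peaks with 2 fragments, 53 had the smallest width in the list, 170 bp.

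**Figure D1:**
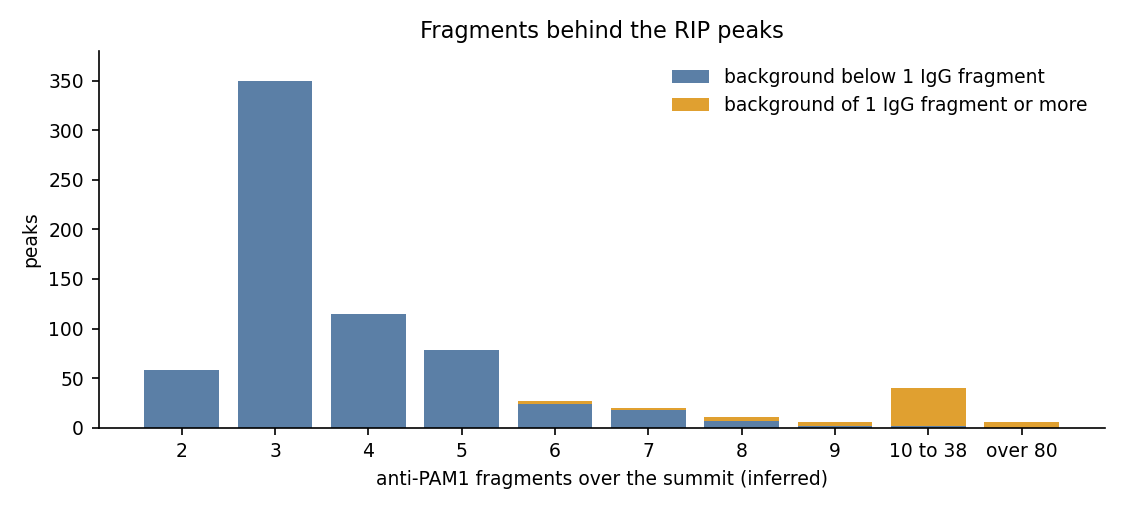
Number of peaks (y axis) by the inferred number of anti-PAM1 fragments over the summit (x axis, last classes pooled), coloured by whether the background reached 1 IgG fragment. The tallest bar holds the 350 peaks with 3 fragments, and nearly all peaks with 10 or more fragments had a background of at least 1 IgG fragment.

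The IgG background was also stepwise, and at most peaks it was almost empty. The background is the number of fragments expected at the summit from the IgG samples after the caller scaled them to the antibody samples. It lay at its lowest value, 0.0144 fragments, for 303 peaks. For the other peaks it was a whole multiple of 0.0111 (287 peaks), 0.111 (71 peaks) or 0.651 (50 peaks), within 0.0001 of each value in relative terms. These steps stand in the ratios of windows of 10000, 1000 and 170 bp, so 0.651 was read as 1 IgG fragment over the summit after scaling. By that reading, the IgG samples together had 1.54 times the fragments of the antibody samples. In 654 peaks (92.0%) the background was below 1 such step, that is, no IgG fragment lay over the summit. In the 57 others it was 1 step or more, and in 50 of them a whole number of steps.

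The number of fragments sets how precise a peak's ratio can be. With 3 anti-PAM1 fragments and no IgG fragment over the summit, the exact conditional 95% interval of the ratio starts at 0.635, and with 2 fragments at 0.289. With 4 it starts at 1.01. The lower limit was therefore under 1 at all 408 peaks with 2 or 3 fragments. It was above 1 at 296 peaks, and for 7 peaks, whose background was set by a wider window, it was not computed. The 296 are all the peaks with 4 or more fragments for which it was computed. This split thus repeats the number of fragments and is not a separate result. These intervals use the summit alone, treat each fragment as a separate molecule, cover counting error only and belong to places chosen for being high. By the steps above, the authors' p-values rest on the IgG fragments over the summit for 50 peaks. For 303 peaks they rest on the lowest background, and for the others on a background averaged over wider windows. If the effective genome size were the 2090 Mb that the nuclear peaks span, that lowest value would correspond to 176592 antibody fragments and 271375 IgG fragments in all. The effective size was not given in the sources used here, so the depth of the RIP samples is not known.

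Because 1 is added to both sides of the fold enrichment, a peak over the lowest background has a value close to its fragments plus 1. Over that background, 2 fragments gave a fold enrichment of 2.96 (34 peaks), 3 fragments 3.94 (201 peaks), 4 fragments 4.93 (50 peaks), 5 fragments 5.92 (14 peaks), 6 fragments 6.90 (3 peaks) and 7 fragments 7.89 (1 peak). The −log10 q rose by about as regular a ladder, from 2.12 to 3.88, 5.82, 7.84, 10.04 and 12.5. In all, the 711 peaks held only 116 different combinations of fold enrichment and p. The Spearman correlation of fold enrichment with the number of fragments was 0.77 over 711 peaks, but the 6 peaks with more than 80 fragments had values of only 1.39 to 3.42. All correlations over peaks are descriptions, since the peaks share the same pooled samples.

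The peaks with the most fragments were also those with the most IgG fragments. On chromosome 9 of the B73 v4 assembly, the peak at 20238247 to 20238435 had 227 antibody and 131 IgG fragments over its summit, a scaled ratio of 2.66 (exact conditional 95% interval 2.14 to 3.33). Its neighbour at 20383652 to 20383825 had 200 and 119, a ratio of 2.58 (2.05 to 3.27). The peak at 146709527 to 146709700 on chromosome 3 had 87 and 38, a ratio of 3.52 (2.38 to 5.30). These are the peaks with the 3 highest −log10 q values of the list (27.9, 23.5 and 15.2). Each was narrow, 174 to 189 bp.

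**Figure D2:**
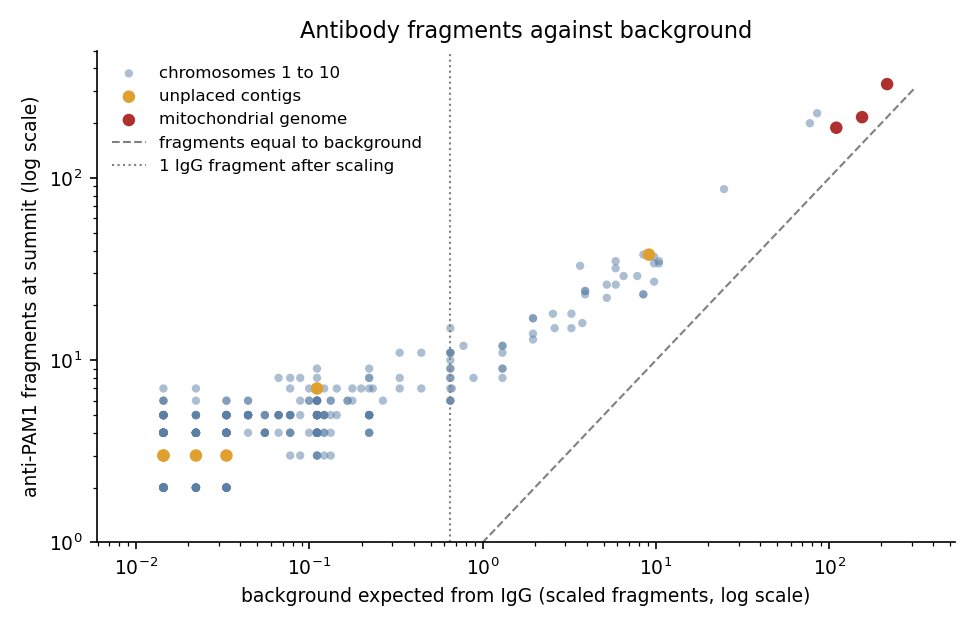
Inferred anti-PAM1 fragments over the summit (y axis, log scale) against the background expected from IgG (x axis, scaled fragments, log scale), 1 point per peak. Points line up in columns where the background is a whole number of steps, and the 3 mitochondrial peaks lie nearest to the line of equality.

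The other peaks among the 10 highest −log10 q values were of different kinds. The peak at 148186620 to 148186929 on chromosome 9 had 33 fragments over a background of 3.65 that a wider window had set (fold enrichment 7.31, −log10 q 13.9). The peak at 116550262 to 116550479 on chromosome 10 had 7 fragments over the lowest background (−log10 q 12.5), and that at 190658628 to 190658872 on chromosome 3 had 7 over 0.0221 (11.2). The peak at 29538322 to 29538514 on chromosome 2 had 15 antibody fragments and 1 IgG fragment, and its fold enrichment of 9.69 was the highest in the list. Its scaled ratio was 23.1, with an interval from 3.55 to 970.4, so a single IgG fragment carries that value. The remaining 3 had 6 fragments over the lowest background and a −log10 q of 10.04, and lay at 44954038 to 44954465 on chromosome 2, 152832804 to 152833120 on chromosome 4 and 132736604 to 132736785 on chromosome 8. A −log10 q of 10 or more was thus reached with as few as 6 fragments and with as many as 227.

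On each chromosome, the peak with the highest fold enrichment had between 7 and 33 fragments. The values ran from 7.20 on chromosome 5 (3281535 to 3281767, 7 fragments) to the 9.69 on chromosome 2. Chromosome 6 reached 9.01 at 153439748 to 153439966 with 11 fragments, and chromosome 8 reached 9.004 at 168620500 to 168620674 with 9. With 8 fragments each, the highest values were 8.44 on chromosome 3 (177202153 to 177202330), 8.35 on chromosome 10 (143879863 to 143880084), 8.27 on chromosome 1 (193250120 to 193250331) and 8.10 on chromosome 7 (147764547 to 147764728). Chromosome 4 had a tie at 7.37, between 19409740 to 19409979 and 32023576 to 32023751, again with 8 fragments each. On chromosome 9 the highest value was the 7.31 already given. No IgG fragment lay over the summit of any of these except the one on chromosome 2, and for the one on chromosome 9 the IgG fragments could not be read.

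Peaks were spread over the chromosomes roughly as the chromosomes' length and expressed genes are. Chromosome 1 had 113 peaks, chromosome 3 had 92, chromosomes 4, 2 and 5 had 73, 72 and 71, chromosomes 7, 6 and 8 had 65, 62 and 60, chromosome 9 had 51 and chromosome 10 had 43. Per Mb, counted from the first base to the end of the last peak, the density was 0.336 over all nuclear chromosomes. It was lowest on chromosome 10 at 0.288 (exact Poisson 95% interval 0.209 to 0.388) and highest on chromosome 3 at 0.393 (0.317 to 0.482), a ratio of 1.36, and these intervals overlap. Chromosomes 1, 6 and 7 had 0.369, 0.366 and 0.359 peaks per Mb, chromosomes 8, 9 and 5 had 0.335, 0.320 and 0.319, and chromosomes 4 and 2 had 0.297 and 0.295. The intervals treat peaks as independent, which close neighbours are not.

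The number of expressed rows gave a similar picture. A row of the count table was taken as expressed with at least 1 CPM (a count scaled to a library total of 1000000) in at least 2 of the 3 A344 libraries, which held for 22447 of 44474 rows. Chromosome 1 had 3485 such rows, chromosome 5 had 2676, chromosome 2 had 2615, chromosome 3 had 2399, chromosome 4 had 2232, chromosome 8 had 2063, chromosome 6 had 1855, chromosome 7 had 1806, chromosome 9 had 1627 and chromosome 10 had 1465. Chromosome 3 stood highest, with 38.3 peaks per 1000 expressed rows (95% interval 30.9 to 47.0), followed by chromosome 7 with 35.99 (27.8 to 45.9). Chromosome 5 stood lowest with 26.5 (20.7 to 33.5) and chromosome 2 next with 27.5 (21.5 to 34.7). The other 6 lay between 29.1 and 33.4, and the intervals of the highest and the lowest chromosome overlap. Their ratio was 1.45 (95% interval 1.05 to 2.00), an interval that makes no allowance for their being the extremes of 10. When peaks within 5000 bp of each other were merged, chromosome 7 and not chromosome 3 was highest, at 1.35 times chromosome 5. Chromosome 3 held 13.1% of nuclear peaks and 10.8% of expressed rows, and chromosome 5 held 10.1% and 12.0%.

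**Figure D3:**
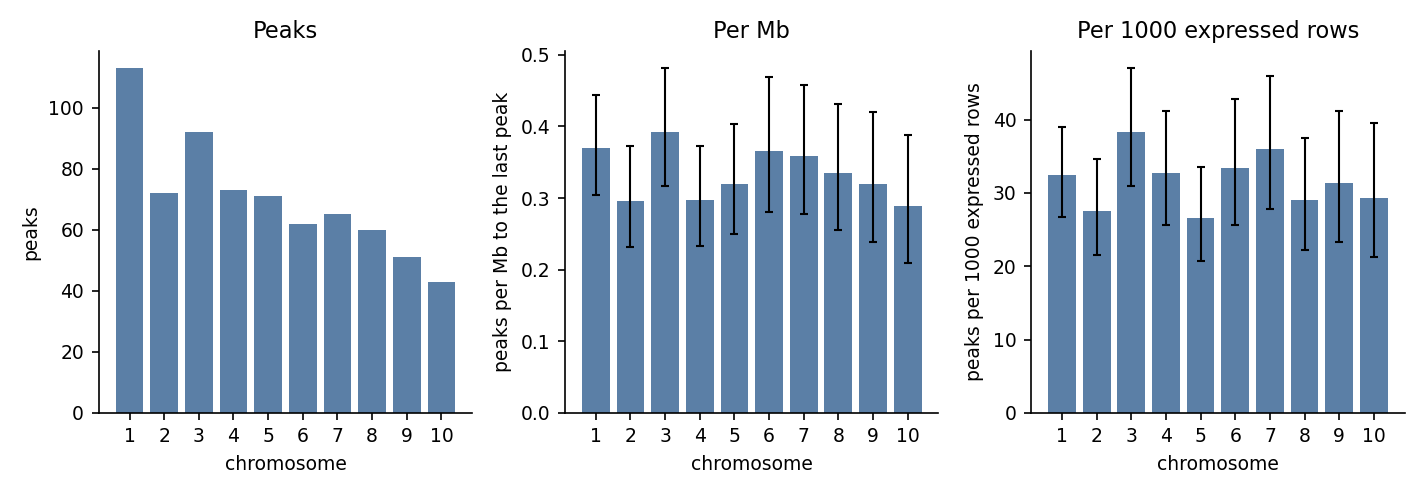
Peaks on each nuclear chromosome as a number, per Mb up to the last peak and per 1000 expressed rows of A344 RNA-seq, with exact Poisson 95% intervals as bars in the last 2 panels. The densities differ far less than the numbers, and chromosome 3 is highest in both.

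Over the 10 chromosomes, the number of peaks had a Pearson correlation of 0.90 (Spearman 0.84) with expressed rows, 0.92 (0.95) with the length up to the last peak and 0.91 (0.84) with the share of A344 counts. Without the 2 chromosomes farthest from the median these were 0.68, 0.79 and 0.65. Expressed rows and length were themselves correlated at 0.94, so the number of peaks cannot be tied to one rather than the other. With the 298 nuclear peaks of at least 4 fragments, the correlation with expressed rows was 0.57. The share of such peaks had a median of 42.7% over the 10 chromosomes. It was 54.3% on chromosome 3, 51.2% on chromosome 10 (22 of 43 peaks) and 33.6% on chromosome 1. With at least 5 fragments, the shares on these chromosomes were 30.4%, 25.6% and 21.2%, against a median of 26.5%. Chromosome 10 thus stood above the median at the limit of 4 but not of 5. The limit of 4 was chosen after the data were seen, and no interval was computed for these shares. The chromosome 3 share counts separately the peaks of groups of 4 and 3 close neighbours, described below. Chromosome 8 had the largest share of peaks over the lowest background, 55.0%, against 39.4% to 47.2% on the other 9. By position, 463 nuclear peaks (66.0%) lay in the outer 25% at either end of their chromosome, and 239 between. Chromosomes were taken up to their last peak, and the outer and middle parts are equally long. Rows had no position within a chromosome here, so the share of expressed rows in the outer parts is not known.

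The relation of width to fold enrichment differed with the peaks used. Peaks were 170 to 1226 bp wide, and 452 of them (63.6%) had the smallest width, which equals the fragment length implied by the background steps (170 bp). The Spearman correlation of width with fold enrichment was 0.43 over all 711 peaks (Pearson 0.10). Among the 259 peaks wider than 170 bp it was −0.13, among the 531 peaks with a −log10 q of at least 3 it was 0.52, and among the 303 over the lowest background it was 0.66. Of these sets, the one without the narrowest peaks was the one with no positive value. Over the lowest background the number of fragments fixes the fold enrichment, so the 0.66 is equally the correlation of width with fragments. Over all 711 peaks, the Spearman correlation of width with fragments was 0.59. Peaks of 170 bp had a median fold enrichment of 3.94 and a median of 3 fragments. Those over 170 and under 180 bp, from 180 to under 200 and from 200 to under 300 bp had fold enrichment medians of 4.93 each, and median fragments of 4.5, 4 and 5. For the 38 peaks from 300 to under 400 bp the median was 4.14, and for the 9 of 400 bp or more it was 5.25. Of the peaks with 2 or 3 fragments 91.2% were 170 bp wide, and of those with 4 or more 26.4%.

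**Figure D4:**
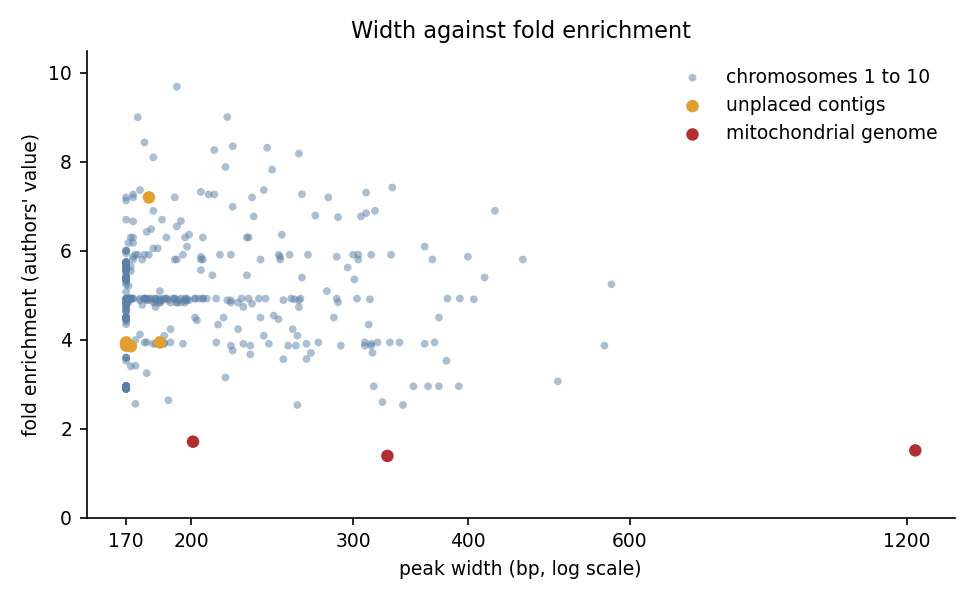
Fold enrichment from the authors' list (y axis) against peak width (x axis, log scale), 1 point per peak, with contig and mitochondrial peaks in colour. Horizontal bands are the fold values of 2, 3, 4 or 5 fragments over a low background, and the mitochondrial peaks lie below all others, the widest at 1226 bp.

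The widest peaks were not a uniform class. After the 1226 bp of a mitochondrial peak came 573 bp (171424694 to 171425266), 563 bp (66379069 to 66379631) and 501 bp (171280665 to 171281165), all on chromosome 3. They had 35, 3 and 34 fragments over the summit and fold enrichments of 5.25, 3.87 and 3.07. The next, on chromosomes 4 (236692700 to 236693158, 459 bp), 2 (428 bp, given above), 6 (159805111 to 159805527, 417 bp), 7 (160256896 to 160257301, 406 bp) and 1 (47748717 to 47749116, 400 bp), had 5 or 6 fragments. The tenth, at 60681608 to 60681999 on chromosome 3 (392 bp), had 4.

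The 3 mitochondrial peaks had lower fold enrichments and higher IgG backgrounds than every nuclear peak. The plant mitochondrial genome is transcribed into abundant RNA inside the organelle. The peak at 400420 to 400746 had 216 antibody and 238 IgG fragments over its summit, a scaled ratio of 1.39 (95% interval 1.15 to 1.68). The peak at 402983 to 403183 had 189 and 169, a ratio of 1.72 (1.39 to 2.13), and the peak at 419801 to 421026 had 328 and 332, a ratio of 1.52 (1.30 to 1.77). At 2 of the 3, the IgG samples thus held more fragments than the antibody samples before scaling, which was the case at no nuclear or contig peak for which IgG fragments could be read. Their fold enrichments, 1.39 to 1.71, lay below the lowest nuclear value, 2.54, and their widths of 327, 201 and 1226 bp lay above the nuclear median of 170 bp. At these 2, the enrichment rests on the scaling between the pools. In the count table, the 174 rows with GRMZM identifiers, not placed on a chromosome here, took 1.84 ± 0.254% of A344 counts (SD, n = 3), and 64 of them were expressed. Which of them are mitochondrial was not looked up.

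The 6 peaks on unplaced contigs had widths, fragments and fold enrichments within the range of the nuclear ones. Those on B73V4_ctg115 (32120 to 32289), B73V4_ctg50 (49402 to 49571 and 225652 to 225836) and B73V4_ctg52 (349380 to 349549) had 3 fragments each and fold enrichments of 3.87 to 3.94. The peak on B73V4_ctg182 (458757 to 458936) had 7 fragments, none in IgG over the summit, and a fold enrichment of 7.20. The peak on B73V4_ctg136 (34072 to 34243) had 38 antibody and 14 IgG fragments, a scaled ratio of 4.17 (2.21 to 8.33). No number of expressed rows is set beside them, since no row of the count table could be tied to a contig.

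Nuclear peaks were mostly solitary. The median distance between neighbours was 1.83 Mb, and the largest was 31.3 Mb. Of 692 neighbouring pairs, 31 were closer than 5000 bp, 20 of them closer than 1000 bp, and 14 more lay 5000 to 50000 bp apart. The 5 closest pairs, 108 to 170 bp apart, had 2 to 6 fragments per peak and no IgG fragment over any summit. In 3 of them both peaks had the same fold enrichment: 3.94 on chromosome 8 (161548835 to 161549004 and 161549113 to 161549282), 5.92 on chromosome 5 (27788252 to 27788581 and 27788731 to 27789034) and 6.30 on chromosome 6 (169323267 to 169323439 and 169323610 to 169323815). The pairs on chromosome 3 (200566273 to 200566442 and 200566564 to 200566761) and chromosome 9 (134469499 to 134469675 and 134469829 to 134469998) had 2 and 4 and 5 and 3 fragments.

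**Figure D5:**
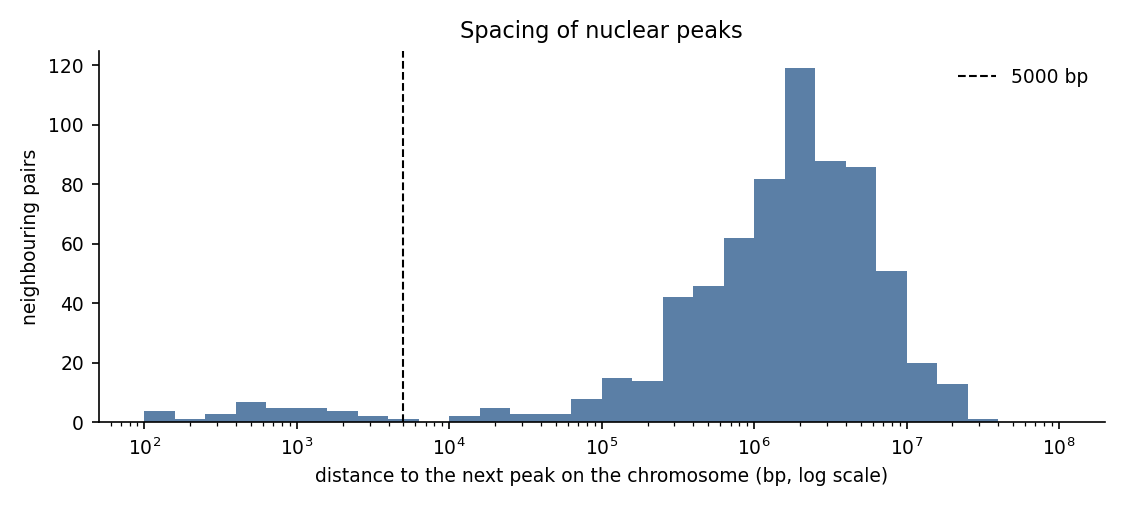
Number of neighbouring nuclear pairs (y axis) by the distance from one peak to the next on the same chromosome (x axis, bp, log scale). The main group lies around the median of 1.83 Mb, and a low tail reaches down to 108 bp, with 31 pairs below 5000 bp (dashed line).

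Several of the peaks with many fragments lay in groups. Of the 57 nuclear peaks with another peak within 5000 bp, 13 (22.8%) had 10 or more fragments, against 29 of the 645 others (4.50%), while the median was 3 fragments in both. Peaks of the same group were counted separately, and most of the 13 lay in the few groups named below. No test of that difference was made. The densest 1 Mb window, from 171000001 to 172000000 on chromosome 3, held 8 peaks. There, 4 peaks between 171277805 and 171281165 had 26 to 37 fragments and 3 peaks between 171422353 and 171425266 had 34 or 35, and the last, at 171443620 to 171443802, had 4. The first 7 had fold enrichments of 3.07 to 5.25 over backgrounds of 5.86 to 10.4. Another 3 peaks, between 148185789 and 148187427 on chromosome 9, had 23, 33 and 38 fragments, with fold enrichments of 2.54 to 7.31. A pair between 6223836 and 6224918 on chromosome 4 had 32 and 27 fragments, against 9 and 15 in IgG. These groups on chromosomes 9 and 4 were singled out after their values were seen. Most windows with a peak had a single one: 461 held 1 peak, 91 held 2, 14 held 3, and 3 held 4, 5 and 8.

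Reads from A344 were placed on a reference made from B73, another inbred line, so peaks in sequence that only A344 has would not be seen. The list gives no strand for any of the 711 peaks. No annotation of B73 v4 was used here, so genes under the peaks are not named.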

How the data were processed

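The study comprises 11 samples, of which 5 are RIP samples. Per the labels, RNA came from a column kit (NucleoSpin) and RNA-seq libraries from a directional kit (NEBNext UltraII); how the RIP libraries were made was not stated apart from this. Groups and replicate numbers came from sample titles. Bowtie2 2.4.5, MACS2, STAR and DESeq2 appear in the submitters' processing notes with no roles. Per the file headers, or for the headerless peak list its column order, the authors' deposited values are a score, a fold enrichment (ratio), −log10 p and −log10 q per peak, and the deposited RNA-seq table holds raw counts per row. The count program, its strand setting, the peak caller's settings and the genome size were not given in the sources used here. The list was taken as anti-PAM1 over IgG from its name and the RIP samples' labels. Its entries, however, carry the tags pam1, wt and auto and a q tag unlike the one in the list's name. None of these tags is explained in the labels. Positions are on B73 v4, as its contig names show, counted from 1.

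Fragments and background were solved from fold enrichment and p with the formulas that MACS2 is known to use. Rows were placed on chromosomes by table order: the table was divided where a running median of identifiers over 41 rows jumped by more than 1000. Of the 11 stretches, 10 were named by their microRNA rows, whose chromosomes came from RefSeq's gene table (Zm-B73-REFERENCE-NAM-5.0), which served only to name and place rows, and 152 of 153 matched rows gave the stretch's chromosome. The last stretch held no microRNA row and was put on no chromosome. Rows next to a division may be misplaced.

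CPM used total counts. No statistical test was made, since the list has no replicates. Nothing in the labels says whether samples came from separate plants. Peaks were named by rule: the highest fold enrichment per chromosome, the 10 highest −log10 q, the 10 widest, the 5 closest pairs, every mitochondrial and contig peak and the densest 1 Mb window. The questions and lists were chosen with earlier results of these data known, and the use of fragments as a limit only after they had been solved. Tools were matplotlib 3.10.9, pandas 2.3.3, scipy 1.17.1 and numpy 2.4.6 under Python 3.11.15.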

Additional observations from a re-analysis of the deposited data

How the results depend on the processing

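A limit of 4 fragments over the summit, chosen after the data were seen, left 303 peaks, 298 of them nuclear. With it, the highest chromosome had 2.02 times the peaks per 1000 expressed rows of the lowest (1.45 with all peaks), chromosome 3 over chromosome 2, and the correlation of peaks with expressed rows was 0.57. The median nuclear fold enrichment was then 4.93 and the median width 185 bp. The fold enrichment follows in part from the limit itself, and the cause of the change in width was not tested. Among peaks wider than the narrowest, the median fold enrichment was 4.93 and the correlation of width with fold enrichment was −0.13. Merging within 1000 or 5000 bp left 691 or 679 loci, and limits of 2 and 3 on −log10 q left 672 and 531 peaks. The highest density per Mb was on chromosome 3 with all peaks, on chromosome 7 at a −log10 q of at least 3 and on chromosome 1 after merging within 5000 bp, so the order of chromosomes depends on these choices. The ratio of the highest to the lowest density per Mb was 1.36 with all peaks, 1.55 at that q limit, 1.27 after merging and 1.93 with at least 4 fragments. Per 1000 expressed rows it was 1.87 at the q limit (chromosome 7 over 5). Other limits for an expressed row, including leaving out each A344 library in turn, kept this last ratio, with all peaks, between 1.44 and 1.48. No paired analysis was possible because the RIP samples were combined in 1 list. At the 408 peaks with 2 or 3 fragments, the counts are too few for the interval of the ratio to lie above 1.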
